A study of Mus musculus with 10 samples.

Results

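Long intergenic noncoding RNAs (lincRNAs) measured in whole mouse kidney at a mean level of at least 1 CPM (reads scaled to the size of the library) were taken as a set. The authors' deposited table of transcripts was matched by identifier to GENCODE vM21, each gene annotated as lincRNA was represented by its row with the highest mean log2 CPM, and the gene was kept if that row was a lincRNA transcript at a mean log2 CPM of 0 or more. This gave 105 of the 1418 lincRNA genes in the table (7.40%), and 105 of 27902 genes of any type. The mean level that chose the members comes from the same comparison as their fold changes, so levels and fold changes are described here and the set as a whole was not tested.

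Kidneys came from wild-type mice on day 14. One group of 5 received vehicle and the other group of 5 received quinolinic acid, a breakdown product of tryptophan, at 0.5 g/L in the drinking water. All 10 libraries carry the same batch label, and the labels give neither the sex of the animals nor whether injury was induced. The comparison asks which kidney transcripts differ with quinolinic acid.

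LincRNAs are capped RNAs, usually spliced and polyadenylated, that are transcribed from between protein-coding genes and have no long open reading frame. Some act as structural RNAs of nuclear bodies, some are the precursors from which small nucleolar RNAs (snoRNAs) or microRNAs are cut, and some act on the chromatin of a neighbouring gene. Many are made in few cell types and at low level, and for most no function is known.

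Values per library were not analysed here. The depth of the libraries is therefore unknown, and neither a value for a single mouse nor the spread among mice is shown. Each log2 fold change, level and p below comes from the authors' deposited table, and each approximate 95% interval, given in brackets after a fold change, was computed from the fold change and its likelihood ratio. The header does not say which treatment is the numerator of the ratio, so a positive or negative sign is given as deposited and carries no direction relative to quinolinic acid. In whole tissue, fewer cells of a type and less RNA per cell cannot be told apart.

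Malat1 and Neat1, which lie side by side on chromosome 19, head the set as the RNAs of nuclear bodies. Malat1 gathers in nuclear speckles, and Neat1 is the RNA around which paraspeckles form. Both lack a poly(A) tail at the mature 3′ end of the long transcript, which is instead held in a triple helix of 2 U-rich motifs and an A-rich tract. The stretch is printed because it is what these members share in sequence, read from the GENCODE vM21 transcripts on GRCm38, with the T of the annotation standing for U. Capitals mark every exact match of at least 11 nt between the last 400 nt of both transcripts. These are TTTCTTTTCCTGA and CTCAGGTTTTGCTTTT, which hold the U-rich motifs, and AAAAAGCAAAA in the A-rich tract. Malat1 is shown from chr19:5795972-5796075 and Neat1 from chr19:5824708-5824807, both on the minus strand.
Malat1: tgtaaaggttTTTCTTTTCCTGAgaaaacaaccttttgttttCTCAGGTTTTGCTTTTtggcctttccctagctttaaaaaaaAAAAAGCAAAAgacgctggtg
Neat1: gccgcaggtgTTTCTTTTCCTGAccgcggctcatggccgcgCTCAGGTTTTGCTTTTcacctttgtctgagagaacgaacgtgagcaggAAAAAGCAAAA
The 3 stretches were defined from this pair. In this order on the transcript strand and within 120 nt they were found in Malat1 and Neat1 and in no other of the 105 transcripts (1.90% hold them), and in the same 2 among the transcripts of the 13129 genes of at least 1 CPM (0.0152%). The annotated Malat1 transcript runs 292 nt past the A-rich stretch, whereas the annotated Neat1 transcript ends on it.

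The other printed sequences are the mature microRNAs of the 2 members that hold 3 or more microRNA genes, with 1 arm of each hairpin, taken from RefSeq on GRCm38.p6, with the seed (bases 2 to 8) in capitals. Mir17hg, on chromosome 14, is the precursor of the miR-17-92 cluster, which promotes proliferation. It holds 6 microRNAs, which fall into 4 seed groups.
miR-17-5p: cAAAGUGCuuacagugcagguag
miR-20a-5p: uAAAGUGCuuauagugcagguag
miR-18a-5p: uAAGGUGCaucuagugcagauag
miR-19a-3p: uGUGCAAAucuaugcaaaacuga
miR-19b-3p: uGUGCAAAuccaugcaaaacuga
miR-92a-3p: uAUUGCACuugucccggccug
6720427I07Rik, on chromosome 13, holds 3 members of the let-7 family, microRNAs associated with differentiated cells, which share 1 seed.
let-7a-5p: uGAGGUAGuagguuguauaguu
let-7f-5p: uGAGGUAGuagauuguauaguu
let-7d-5p: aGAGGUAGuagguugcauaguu

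No lincRNA of the set was called. An adjusted p under 0.05 was reached by 0 of the 105 members in the authors' deposited table (edgeR likelihood-ratio test, Benjamini-Hochberg adjustment over 85107 transcripts), beside 0.0141% of all transcripts. The smallest adjusted p of a member was 0.783, that of Malat1. An unadjusted p under 0.05 was held by 3 members (2.86%) in the authors' deposited table, Snhg6 with a positive sign and Malat1 and Gm13652 with a negative sign. The same share was 6.08% over all transcripts, made up of 2.86% positive and 3.22% negative. Over the genes of at least 1 CPM it was 4.08%, made up of 3.2% positive and 0.884% negative. Since the members were chosen within this comparison, nothing is read from these differences.

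What the data allow to be seen is set by the errors. The median approximate standard error of a member's log2 fold change was 0.188, against 0.139 for the 12645 protein-coding genes of at least 1 CPM, whose median level of 12.9 CPM lies above the 2.56 CPM of the members. Between 1 and 2 CPM the median standard errors were 0.209 for members and 0.218 for protein-coding genes. To be called, a member at the set's median error of 0.188 would have needed a log2 fold change of 0.87. At the median error of members between 1 and 2 CPM it would have needed 0.97. The 95% interval lay inside ±1 on the log2 scale for 103 members, all but Gm4208 and Gm29012, and inside ±0.5 for 46 of them (43.8%). Between 1 and 2 CPM it lay inside ±0.5 for 34.1% of members and 28.2% of protein-coding genes, and between 2 and 5 CPM for 48.6% and 57.4%.

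Fold changes of the members were small and, as deposited, mostly of positive sign. Deposited fold changes also varied with transcript length and level over all genes, and with that trend subtracted the members' median was −0.02 and 46.7% were positive. In the authors' deposited table all 105 log2 fold changes lay between −0.40 and 0.46, centred on a median of 0.09, and 72 were positive and 33 negative. Protein-coding genes of at least 1 CPM had a median of 0.08, with 71.8% positive. In the range of 1 to 2 CPM the share of positive values was 65.9% among members and 66.1% among protein-coding genes, and from 2 to 5 CPM it was 67.6% and 68.0%. The 98 antisense RNA genes chosen by the same rule had a median of 0.09, with 72.4% positive and 0 called. The plot of the named members shows where each interval lies.

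**Figure D1:**
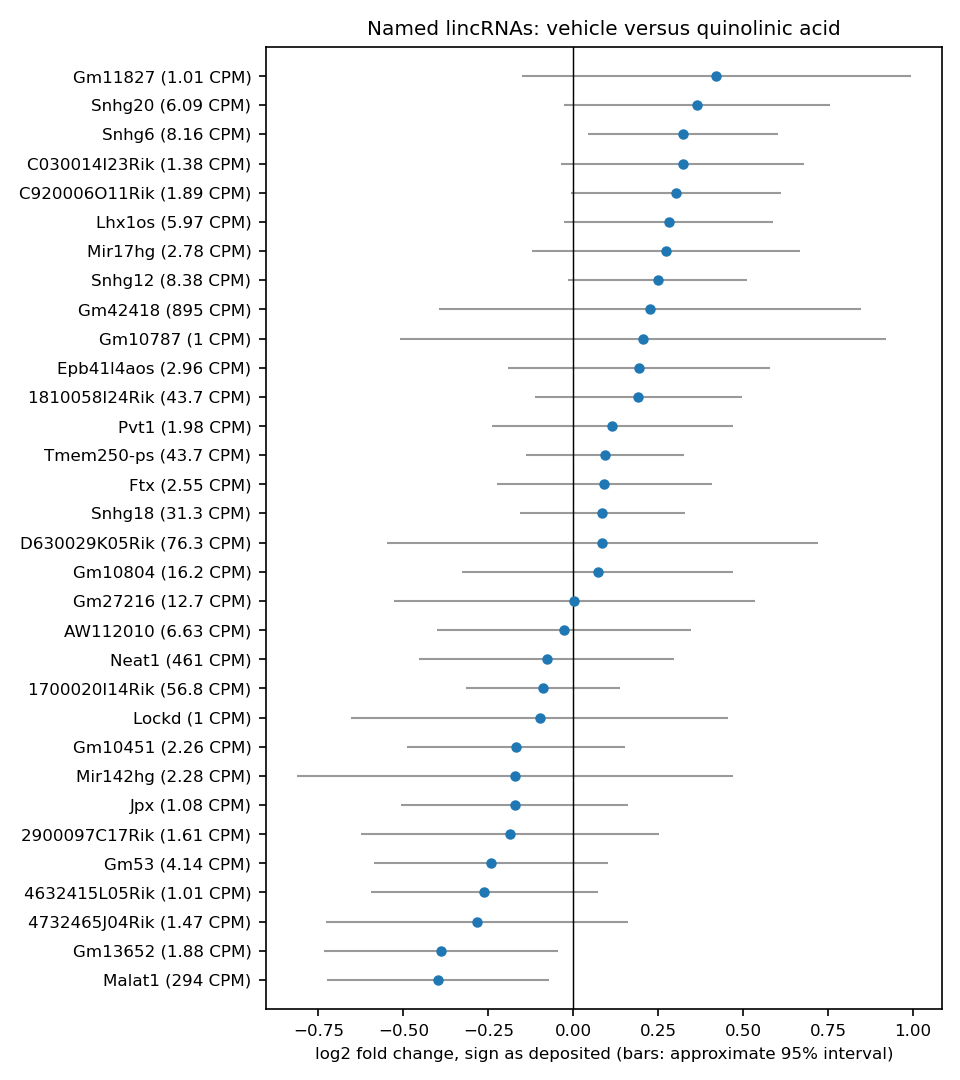
Log2 fold change (x axis, sign as deposited) of the 32 named lincRNAs, each with its approximate 95% interval and, in brackets, its mean level in CPM. The intervals of Snhg6, Malat1 and Gm13652 lie to one side of 0, and those of the other named members include it.

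The most abundant member by reads was Gm42418, an RNA annotated on chromosome 17 (39846958 to 39848788, plus strand). It stood at 895 CPM, or 489 CPM per kb of transcript, the highest level per length of the set, and held 40.3% of the members' summed CPM. Its annotation overlaps the ribosomal RNA gene CT010467.1 on the opposite strand, and RefSeq places Rn18s-rs5, a pseudogene related to 18S ribosomal RNA, at 39846354 to 39848202. The sources used here do not say whether counting used strand, so reads of a lincRNA and of ribosomal RNA cannot be told apart at this site. The authors' deposited table gave it a value of 0.23 on the log2 scale (95% interval −0.39 to 0.85). Gm26917, which ends 616 bp upstream of it, had 3.60 CPM per kb and a log2 fold change of 0.20 (−0.30 to 0.69) in the authors' deposited table. Neither interval excluded 0.

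Reads were concentrated in Gm42418 and in the 2 nuclear-body RNAs, Neat1 at 461 CPM and Malat1 at 294 CPM. Gm42418 alone held 40.3% of the members' summed CPM, and Gm42418, Neat1 and Malat1 together held 74.3%. Of the other members 9 lay between 10 and 100 CPM and 93 between 1 and 10 CPM, and the median over the set was 2.56 CPM.

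Malat1 (chromosome 19, 5795690 to 5802672, minus strand) had the smallest p of the set. Its full-length, unspliced transcript of 6983 nt stood at 42.1 CPM per kb, and the authors' deposited table gave it −0.40 on the log2 scale (95% interval −0.72 to −0.07), or 1.32-fold. The unadjusted p was 0.0169 and the adjusted p of the authors' edgeR likelihood-ratio test was 0.783, so the difference did not pass the test.

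Shorter Malat1 transcripts in the table cover different, in part shared, stretches of the same RNA. A transcript of 485 nt, with its exons within 757 nt of the 5′ end, had 77.7 CPM per kb and a log2 fold change of −0.15 (−0.47 to 0.16) in the authors' deposited table. A transcript of 556 nt with its first exon between 5208 and 5669 nt from the 5′ end had 23.0 CPM per kb and a log2 fold change of −0.61 (−0.96 to −0.26). A transcript of 656 nt with its first exon between 5720 and 6284 nt had 18.0 CPM per kb and a log2 fold change of −0.59 (−0.92 to −0.25). The second exons of the 556-nt and 656-nt transcripts overlap, at 6887 to 6982 and 6887 to 6979 nt. Their values may therefore share reads and are not separate measurements. The values of both transcripts from the 3′ part were therefore more negative, and their level per length lower, than those from the 5′ part, but the intervals overlap and the difference along the gene was not tested. Unadjusted p-values of the 556-nt and 656-nt transcripts were 0.000558 and 0.000552 in the authors' deposited table, and the adjusted p of both was 0.359 by the authors' edgeR likelihood-ratio test.

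Neat1 (chromosome 19, 5824708 to 5845478, minus strand) gave similar fold changes for its 3 transcripts, all of which include the 5′ part. Its long transcript of 20771 nt, the one that builds paraspeckles, had a log2 fold change of −0.08 (−0.45 to 0.30) in the authors' deposited table. The short transcript of 3004 nt, from the same 5′ end, had −0.07 (−0.45 to 0.30), and one of 1030 nt had −0.19 (−0.55 to 0.18). All 3 intervals include 0.

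The rows of the long and short forms of Neat1 had nearly the same level. The short transcript was listed at 453 CPM, 98.2% of the 461 CPM of the long one, although the long one has 17767 nt more. Across the table, pairs were taken in which the exons of a transcript lay wholly inside those of another. The inner one had no more CPM in 12681 of 12790 pairs (99.1%, tolerance 0.01 on the log2 scale). A count of each read for every transcript it overlaps would give this. Other counting rules could give it too, so the share does not settle the rule, which is not stated in the sources used here. If each read was counted for every transcript it overlaps, the part of Neat1 found in the long form alone held 8.41 CPM. That is 0.473 CPM per kb, against 151 CPM per kb in the short form. A fold change of the long form alone cannot be had from the deposited values.

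**Figure D2:**
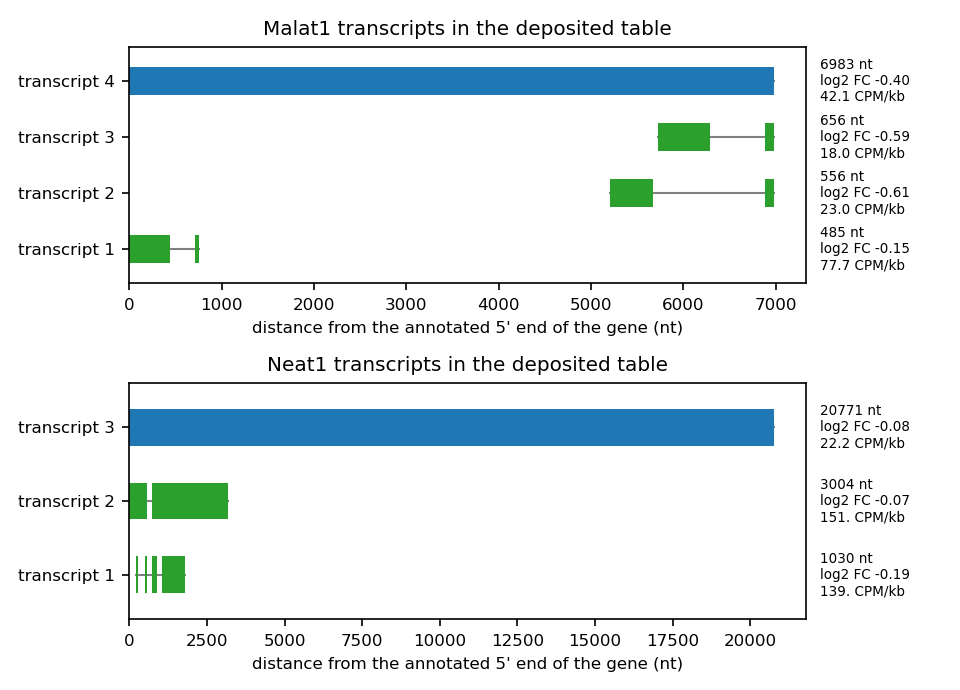
Transcripts of Malat1 (top) and Neat1 (bottom) drawn to scale from the annotated 5′ end (x axis in nt, exons as blocks, unspliced transcripts in blue and spliced ones in green), with length, deposited log2 fold change and level per kb at the right. Malat1 log2 fold changes run from −0.15 near the 5′ end to −0.59 and −0.61 in the 3′ part, while those of Neat1 lie between −0.19 and −0.07.

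Genes of the paraspeckle proteins, the partners of Neat1, were measured for all 20 on the list. Of the 20, the authors' deposited table called 0 and gave 0 an unadjusted p under 0.05 (4.08% over all genes of at least 1 CPM). Of the 20, 13 were positive, where the share over those genes was 71.8%, and the median log2 fold change was 0.04 (range −0.10 to 0.18). After removal of the length and level trend 10 of the 20 were positive, and the share over all genes on that scale is not given here. The smallest p among them belonged to Rbm14, an RNA-binding protein needed for paraspeckles, at a log2 fold change of 0.18, and to Ewsr1, an RNA-binding protein of the FET family, at 0.13, in the authors' deposited table. Nono and Sfpq, the paired core proteins of paraspeckles, had log2 fold changes of −0.02 and 0.15 and were named after their values were seen.

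Of the 6 members with the smallest p of positive sign, 3 were snoRNA host genes, Snhg6, Snhg12 and Snhg20. Such genes carry snoRNAs in their introns, and the spliced RNA left over is often destroyed by nonsense-mediated decay. Snhg6 (chromosome 1, 9941959 to 9944118, minus strand), the host of Snord87, had a log2 fold change of 0.32 (0.04 to 0.60). In the authors' deposited edgeR table its unadjusted p was 0.0230 and its adjusted p 0.788. Its 4 further transcripts gave 0.31 to 0.32 and overlap it, and with the trend on length and level described further on subtracted its value was 0.15. Snhg6 overlaps Mcmdc2 on the opposite strand, which was listed at 0.121 CPM.

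The other hosts in the set had intervals that include 0. Snhg12, whose introns hold snoRNAs such as Snora44, Snora61 and Snord99, had a log2 fold change of 0.25 (−0.01 to 0.51) in the authors' deposited table. Snhg20, which overlaps a small Cajal body RNA and Mir6516, had 0.36 (−0.03 to 0.75). Snhg18, the host of Snord123, stood at 21.0 CPM per kb with 0.09 (−0.16 to 0.33). By position 6 members hold a snoRNA or small Cajal body RNA gene, and 5 of them were positive. Epb41l4aos and 2900076A07Rik, which are not on the list of host genes, had log2 fold changes of 0.19 and −0.01. With the length and level trend subtracted they had 0.004 and −0.18. 2900076A07Rik was named after its value was seen. Of the coding genes nearest to Snhg12 and Snhg20, Trnau1ap, which acts in selenoprotein synthesis, had a log2 fold change of 0.20 and Sec14l1 one of 0.17, in the authors' deposited table.

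Host genes of other annotated types on the list were positive as well. The list held 19 snoRNA host genes, of which 12 were measured at 1 CPM or more, and in the authors' deposited table all 12 were positive, with a median log2 fold change of 0.26 (range 0.00 to 0.36). Of the 12, 0 were called and 1, Snhg6, had an unadjusted p under 0.05, and over all genes of at least 1 CPM 71.8% were positive. The rows used for Gas5, Snhg17 and Zfas1 are annotated as retained-intron transcripts, so they are not the spliced RNA alone. With the shortest transcript of at least 1 CPM per gene, an alternative chosen after seeing the data, 11 of the 12 were positive. The median was then 0.25. Gas5, the classical host of C/D box snoRNAs, had 0.14 (−0.16 to 0.44), Snhg15 had 0.36 (−0.05 to 0.78) and Snhg17 had 0.00 (−0.32 to 0.33). Snhg9, the one further host measured, lay below the floor at 0.228 CPM with 0.72 (0.01 to 1.43). Once the dependence on length and level had been subtracted, the median was 0.08 and 10 of the 12 were positive. The share over all genes on that scale is not given here. The host genes were thus closer to 0 on that scale, and no host passed the test.

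**Figure D3:**
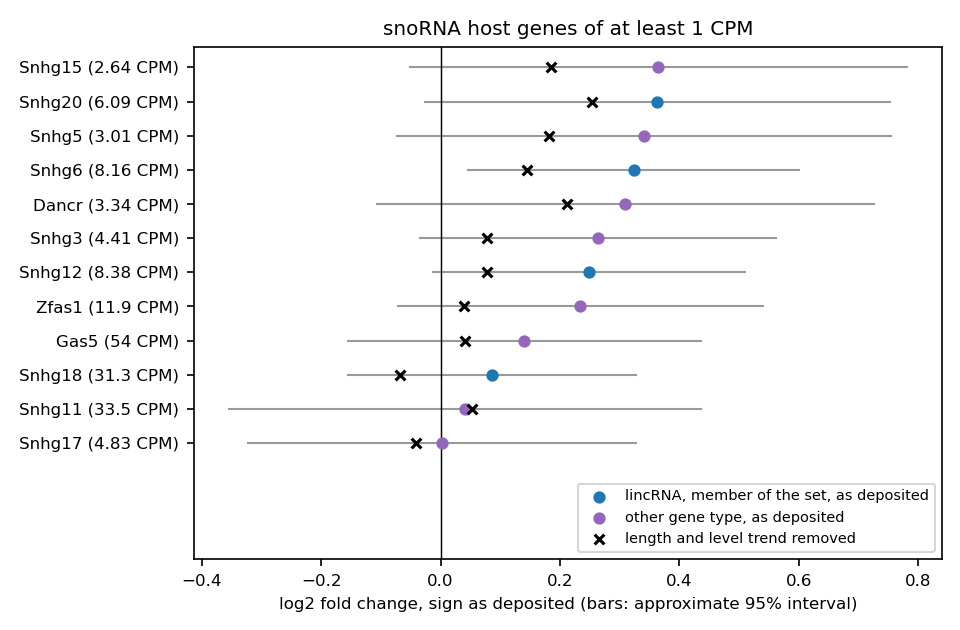
Log2 fold change (x axis, sign as deposited) of the 12 listed snoRNA host genes of at least 1 CPM, with approximate 95% intervals. The 4 listed lincRNAs of the set are in blue and genes of other annotated types in purple. Crosses give the value after the length and level trend was subtracted, whose median is 0.08 against 0.26 for the deposited values.

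Genes of the RNA decay machinery that act on such transcripts gave no call either. Of 16 genes of nonsense-mediated decay, the authors' deposited table called 0 and gave 0 an unadjusted p under 0.05, 9 were positive, and the median log2 fold change was 0.05 (range −0.21 to 0.17). After removal of the length and level trend 3 of the 16 were positive, with a median of −0.029. Smg1, the kinase that phosphorylates Upf1, had −0.21, and Magoh, an exon junction complex protein, had 0.17. Of 19 genes measured among 22 listed names of the nuclear exosome and its cofactors, the main 3′ to 5′ nuclease of nuclear RNA, 0 were called and 0 had an unadjusted p under 0.05, 15 were positive, and the median was 0.07 (range −0.12 to 0.24). After removal of that trend 7 of the 19 were positive, with a median of −0.017. Beside the deposited counts, 71.8% of all genes of at least 1 CPM were positive as deposited. That share with the trend removed is not given here, so the trend-removed counts have no background beside them. The smallest p there belonged to the exosome subunits Exosc4, at 0.24, and Exosc7, at 0.19, in the authors' deposited table.

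In 8 members the gene body holds a microRNA gene, 16 such genes in all. Mir17hg, the precursor of the miR-17-92 cluster printed above, stood at 0.785 CPM per kb with a log2 fold change of 0.27 (−0.12 to 0.67) in the authors' deposited table. 6720427I07Rik, which holds the let-7 genes printed above, stood at 0.867 CPM per kb with 0.13 (−0.20 to 0.46). Mir142hg, the precursor of miR-142 of blood cells, stood at 8.47 CPM per kb with −0.17 (−0.81 to 0.47). None of these intervals excluded 0, and the table gives the precursor transcripts, not the mature microRNAs.

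The X inactivation centre was represented by Ftx and Jpx, noncoding neighbours that activate Xist. Ftx stood at 0.604 CPM per kb with a log2 fold change of 0.09 (−0.23 to 0.41), and Jpx at 0.285 CPM per kb with −0.17 (−0.51 to 0.16), in the authors' deposited table. Xist itself, the RNA that coats the inactive X chromosome, was listed at 0.0631 CPM and is no member, while the Y-linked Eif2s3y was listed at 35.3 CPM. Ftx and Jpx were thus measured in tissue almost without Xist RNA. Gm29650 was the member on chromosome Y, with 3.74 CPM per kb and a log2 fold change of 0.15 (−0.24 to 0.53).

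Members with a role in growth or genome stability gave intervals that include 0. Pvt1, a noncoding gene beside Myc that is often co-amplified with it in human cancers, stood at 0.709 CPM per kb with a log2 fold change of 0.11 (−0.24 to 0.47) in the authors' deposited table. 2900097C17Rik, the mouse Norad RNA that binds Pumilio proteins, stood at 0.328 CPM per kb with −0.19 (−0.63 to 0.25). Epb41l4aos, listed apart from these among RNAs of chromatin and tissue identity and holding a snoRNA gene, stood at 6.88 CPM per kb with 0.19 (−0.19 to 0.58).

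Some transcripts annotated as lincRNA encode short peptides. 1810058I24Rik, whose product is a small mitochondrial peptide, stood at 17.3 CPM per kb with a log2 fold change of 0.19 (−0.11 to 0.50) in the authors' deposited table. AW112010, translated in mouse macrophages, stood at 8.61 CPM per kb with −0.03 (−0.40 to 0.35). The list of imprinted genes gave 0 members. The imprinted lincRNAs H19, Meg3 and Mirg lay under 1 CPM. Kcnq1ot1, Airn and Snhg14 stood at 2.51, 2.78 and 3.25 CPM but are not annotated as lincRNA genes.

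The remaining members named for their p are uncharacterised apart from their position. C920006O11Rik, downstream of the kinase gene Ick, had a log2 fold change of 0.30 (−0.01 to 0.61), and Ick itself −0.12, in the authors' deposited table. C030014I23Rik had 0.32 (−0.04 to 0.68) beside −0.35 for Bcl9l, a coactivator of Wnt signalling, 645 bp away. Both lincRNAs thus had a sign other than that of the neighbour.

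Gm13652 (chromosome 2, 75124871 to 75137798, minus strand), far from the nearest coding gene Mtx2 at 246440 bp, had a log2 fold change of −0.39 (−0.74 to −0.05). In the authors' deposited edgeR table its unadjusted p was 0.0262 and its adjusted p 0.793. Mtx2, a protein of the mitochondrial outer membrane, had a log2 fold change of 0.13. 4632415L05Rik had −0.26 (−0.60 to 0.07) and its nearest coding gene Cp, which encodes ceruloplasmin, had −0.36. The Gm53 transcript in the Hoxb cluster had −0.24 (−0.59 to 0.10), and Hoxb9, a homeobox gene 6589 bp away, had 0.02. For 4732465J04Rik the authors' deposited table gave −0.28 (−0.73 to 0.16) and for Gm10451 −0.17 (−0.49 to 0.15), whose neighbour Ppp1r36 was listed at 0.559 CPM. Of these negative members, Gm13652 alone had an interval that excludes 0.

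Of the abundant members not yet described, D630029K05Rik stood at 35.8 CPM per kb, Tmem250-ps at 17.6, Gm10804 at 7.22 and 1700020I14Rik at 6.85. Their log2 fold changes were 0.08, 0.09, 0.07 and −0.09, and that of Gm27216 at 12.7 CPM was 0.00, in the authors' deposited table, and each interval includes 0. The interval of Tmem250-ps (−0.14 to 0.33) and that of 1700020I14Rik (−0.32 to 0.14) were among the narrowest of the set. Gm10804 overlaps Cd82 on the opposite strand, which was listed at 59.1 CPM. D630029K05Rik overlaps another gene and lies within 5000 bp downstream of a gene on its own strand. Since the strand setting is not given, the levels of Gm10804 and D630029K05Rik may include reads of those genes.

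In gene structure the members had shorter transcripts and fewer exons than protein-coding genes, and so did the antisense RNA genes chosen by the same rule. Their median transcript length was 1772 nt (269 to 20771), against 3095 nt, and their median exon number 2, against 9. A single exon was annotated for 20 of the 105 members, against 1.95% of the protein-coding genes. The antisense RNA genes had a median length of 1590.5 nt and 2 exons, with 17.3% of a single exon. The lincRNA genes under the floor had a median length of 1120 nt and 6.93% of a single exon. The choice by CPM was not scaled to length. Among the members 77 still carry a provisional Gm or Rik name. The members lie on 21 chromosomes, with 13 on chromosome 1 and 11 on chromosome 11.

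Longer transcripts tended to have lower values of the deposited fold change in both classes of gene. Across the 105 members the rank correlation of fold change with transcript length (Spearman's rho) was −0.24 (Pearson −0.25), and across the 12645 protein-coding genes it was −0.53 (Pearson −0.40). These are correlations across genes that share libraries and depth, and genes are not independent replicates. Members under 1000 nt had a median log2 fold change of 0.14, against 0.18 for protein-coding genes of that length. Members of 1000 to 2000 nt had a median of 0.15, against 0.15, and those of 2000 to 4000 nt 0.03, against 0.09. The 14 members of 4000 nt or more had a median of 0.04, against −0.01. The medians of the members thus did not fall steadily with length, unlike those of protein-coding genes. Removing the trend on length and level thus changed the sign of the members' median, as given above.

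**Figure D4:**
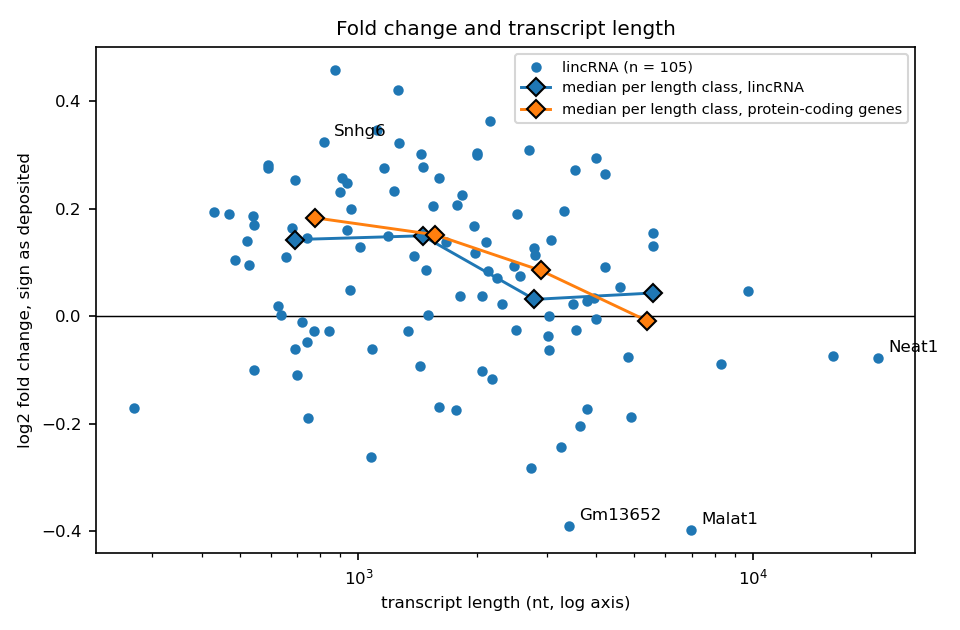
Log2 fold change (y axis, sign as deposited) of the 105 lincRNAs against transcript length (x axis in nt, log scale), with diamonds for the median of each length class of lincRNAs (blue) and of protein-coding genes (orange). Protein-coding medians go from 0.18 under 1000 nt to −0.01 at 4000 nt or more. The lincRNA medians are 0.14, 0.15, 0.03 and 0.04 from the shortest class to the longest.

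Members were set beside their nearest protein-coding gene because some lincRNAs act on a neighbour or share its promoter. The median gap between the gene bodies was 3982 bp, 57 members lay within 5000 bp of a coding gene, and 16 overlapped one. For the 78 neighbours of at least 1 CPM the log2 fold changes of lincRNA and neighbour had a Spearman's rho of 0.01 (Pearson −0.01), and 44 pairs (56.4%) had the same sign. Of these neighbours the authors' deposited table called 0, and 8 had an unadjusted p under 0.05, beside 4.08% of all genes of at least 1 CPM.

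Divergent pairs were taken as those that start within 1000 bp of each other on opposite strands and do not overlap. In the 16 such pairs 15 of the lincRNAs were positive, their median being 0.14, against 68.6% of all members, and 10 pairs had the same sign. After removal of the length and level trend 9 of the 16 were positive, a count added after seeing the data, beside 46.7% of all members. Lhx1os, which starts 125 bp from Lhx1, a LIM-homeobox gene of kidney development, had a log2 fold change of 0.28 (−0.03 to 0.59), against −0.05 for Lhx1, in the authors' deposited table. Pantr1 had 0.16 (−0.16 to 0.48), against 0.02 for Pou3f3, a POU-domain gene of the nephron. Pantr1 was named after its value was seen. The lincRNA and the developmental regulator had different signs in the first pair and the same sign in the other, and neither lincRNA's interval excluded 0.

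The largest fold change of a neighbour of at least 1 CPM was that of Myc, 47612 bp from Pvt1. Myc had a log2 fold change of 0.90 (0.43 to 1.37), against 0.11 for Pvt1. Its unadjusted p was 0.000193 and its adjusted p 0.258 in the authors' deposited edgeR table. Clec2d, a C-type lectin gene next to 2310001H17Rik, had 0.61, against 0.14 for the lincRNA, in the authors' deposited table and was named after its value was seen. Neither gene was called, and the difference between gene and lincRNA was not tested.

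**Figure D5:**
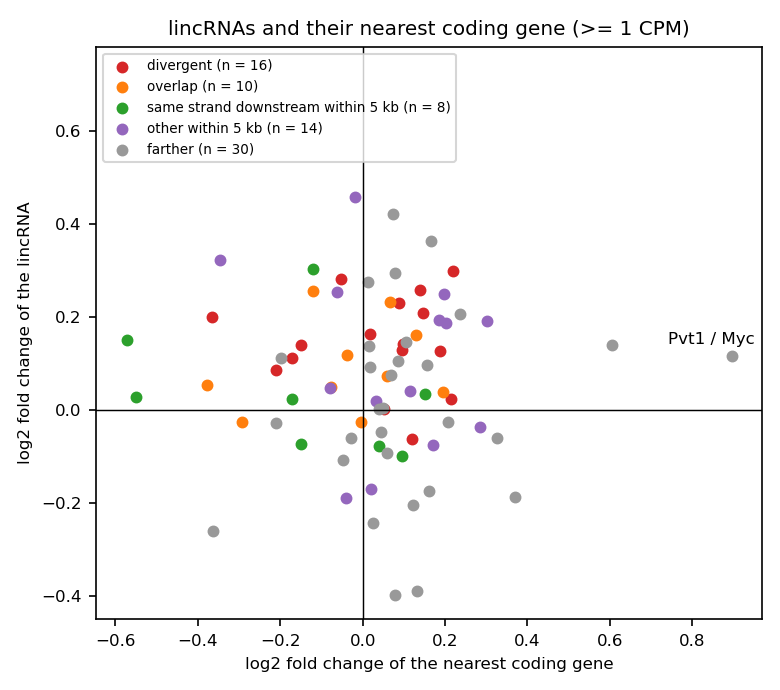
Log2 fold change of each lincRNA (y axis) against that of its nearest protein-coding gene (x axis), both with the sign as deposited, for the 78 pairs whose coding gene has at least 1 CPM, coloured by position. The points form no line (Spearman's rho 0.01), and Pvt1 and Myc lie at 0.11 and 0.90.

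Different transcripts of the same lincRNA gave close values in most cases, and such transcripts overlap. The table held more than 1 transcript for 53 of the member genes, 129 further transcripts in all. Of the 84 further transcripts of at least 1 CPM, 62 differed by at most 0.1 on the log2 scale from the member's own row and 15 had another sign. Among all 234 transcripts the authors' deposited table called 0, and 10 had an unadjusted p under 0.05, from Malat1, Snhg6, Gm13652 and Gm37494, where the share over all transcripts was 6.08%.

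The floor of 1 CPM falls in a dense range of levels. The members just inside it were Gm11827, Gm10787 and Lockd, the last a noncoding RNA downstream of the cell cycle inhibitor gene Cdkn1b, at 1.01, 1.00 and 1.00 CPM, with log2 fold changes of 0.42, 0.21 and −0.10 in the authors' deposited table. Just outside it were C230035I16Rik, 0610043K17Rik and 4632428C04Rik at 0.979, 0.965 and 0.960 CPM, with 0.46, −0.23 and −0.08.

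Markers of the kidney and of neighbouring tissue were checked in the same table. All 8 markers of tubule segments and podocytes were present, at 6.10 to 1430 CPM, with log2 fold changes of −0.11 to 0.31 in the authors' deposited table. The 5 adipocyte markers had low levels, 0.0583 to 0.369 CPM, with positive log2 fold changes of 1.48 to 4.61. The 5 hepatocyte markers stood at 0.335 to 60.9 CPM with 0.14 to 1.98. By the authors' edgeR likelihood-ratio test an unadjusted p under 0.05 was held by 5 adipocyte, 3 hepatocyte and 0 tubule and podocyte markers. That share was 5.11% over all genes. Of each list 0 were called, and the adjusted p of Adipoq was 0.0748. The part of these tissues in the values of the lincRNAs was not tested.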

How the data were processed

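RNA was sequenced from whole kidneys, 5 libraries of vehicle and 5 of quinolinic acid by the treatment label. The submitters' processing notes name STAR 2.5.3a, featureCounts of Subread 1.4.6, FastQC 0.11.2, edgeR and genome build mm10. Annotation release, filters, strand setting and depth per library are not given in the sources used here. The deposited table holds, from the authors, a log2 fold change, a mean level in log2 CPM, a likelihood-ratio statistic, which is a score on 1 degree of freedom, a p-value and an adjusted p, all taken as deposited per the file headers. A test on counts was planned for files with values per library. Since the values are a finished comparison, the authors' edgeR likelihood-ratio test was used instead. The deposited p-values equalled the chi-square tail of the score, with a largest difference of 7.69e-15, and the deposited adjusted p the Benjamini-Hochberg value over all 85107 transcripts, with a largest difference of 1.39e-13. P-values set the difference between the groups against the spread between libraries as the authors' model estimated it.

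Of the transcripts 83446 (98.0%) matched GENCODE vM21 (GRCm38) by identifier without version. The approximate standard error is the size of the log2 fold change over the root of its likelihood ratio, and gives the 95% interval. CPM per kb is the mean CPM divided by transcript length. The trend on log2 length and mean level was removed by loess (span 0.5) over the 13129 genes of at least 1 CPM in R 4.3.3. This step was tried on simulated data that took the lengths, levels and standard errors of those 13129 genes. Their trend was a preset straight line on log2 length alone, and the noise was drawn from the same standard errors that the test uses. It called 94.5% of 200 genes given a log2 change of 1 and 0.0928% of unchanged genes. A change of 1 is larger than the log2 fold change of any member, so recovery at the size of the members' values was not tested. Other steps used Python 3.11.15 with numpy 2.4.6, pandas 2.3.3, scipy 1.17.1, Biopython 1.88 and matplotlib 3.10.9.

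The members and gene lists were chosen with earlier results of these data known. Members named were any called, the 6 with the smallest p of each sign, the 10 with the highest CPM, those on a list of known lincRNAs, and the 3 just inside and the 3 lincRNAs just outside the floor. Each pathway list gave the 2 genes with the smallest p, and each member named for its p its nearest coding gene where that was measured, except that some items are not reported here. Alternatives were other thresholds, adjustments, floors and rows per gene, removal of the trend, and removal of members near other genes.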

Additional observations from a re-analysis of the deposited data

How the results depend on the processing

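The count of 0 called members was the same at thresholds of 0.1 and 0.01, with adjustment over 1 row per gene or over genes at the floor, and after the length and level trend was subtracted. The smallest adjusted p of a member under the last 3 was 0.820, 0.918 and 1.00, in place of 0.783 by the authors' edgeR likelihood-ratio test. With the trend removed the members' median log2 fold change was −0.020 and 46.7% were positive. With no floor 44.1% of 1417 lincRNA genes were positive, since of the 1313 under the floor 554 were positive, 463 negative and the rest at 0. The median of the listed snoRNA hosts was 0.078 without the trend, an alternative chosen after seeing the data. Of the named members Neat1 changed sign to 0.11, D630029K05Rik to −0.035, Tmem250-ps to −0.0093, Snhg18 to −0.067, Gm10804 to −0.039 and Gm27216 to −0.19. The cause was not tested. The members at an unadjusted p under 0.05 without the trend were Malat1, Gm13652 and 4632415L05Rik, so Snhg6 (p 0.307) was not among them. Floors of 1 and −1 on the log2 scale, the longest transcript, any transcript type, members away from other genes and, chosen after seeing the data, the set without Gm42418 and Gm26917 left the median between 0.08 and 0.11, and Spearman's rho with the nearest coding gene was 0.13 without pairs within 5000 bp and 0.04 without the trend. No paired analysis was possible because the values are a finished comparison with no values per library, and leaving out each replicate and a replicate block were not run for the same reason. Depth per library is unknown, and most members have 1 to 10 CPM, where errors are wide.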

Other observations

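Below the floor lay 1313 further lincRNA genes, of which 0 were called by the authors' edgeR likelihood-ratio test and 67 (5.10%) had an unadjusted p under 0.05 in the authors' deposited table, 36 of positive and 31 of negative sign. Their median approximate standard error was 0.938 on the log2 scale. The smallest p belonged to Gm15611, at 0.185 CPM, whose log2 fold change was −1.40 (95% interval −2.18 to −0.62). Its adjusted p was 0.356 in the authors' deposited edgeR table. Crnde, a noncoding gene annotated as a processed transcript, had 0.75 (0.21 to 1.29) at 0.707 CPM with an unadjusted p of 0.00683, and was named after its value was seen.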
